A study of Mus musculus with 31 samples.

Results

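The 8 genes Cacna1a, Cacna1b, Cacna1c, Cacna1d, Cacna1e, Cacna1g, Cacna1h and Cacna1i encode pore-forming alpha subunits of voltage-gated calcium channels. They were taken by gene symbol from a table of 48795 genes, and 8 of 8 passed the count filter that left 19529 genes. Total RNA was sequenced from half-brain homogenates of mice in 31 libraries, 13 labelled control and 18 labelled deltamethrin. Deltamethrin is a pyrethroid insecticide, and the series title calls the exposure developmental. The labels used here give no strain, sex, age, dose, time, litter or vehicle for either group, and no genotype or other agent. They do not say that the samples are separate animals, so p-values measure the spread between these samples only, which may be technical.

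A voltage-gated calcium channel opens when the membrane depolarises and lets calcium into the cell. The alpha subunit forms the pore and the voltage sensor, and beta and alpha2delta subunits affect how much of it reaches the membrane and how it gates. Cacna1a (P/Q-type), Cacna1b (N-type) and Cacna1e (R-type) open at strong depolarisation and drive transmitter release at nerve terminals. Cacna1c and Cacna1d are L-type channels of cell bodies and dendrites that couple activity to gene transcription. Cacna1g, Cacna1h and Cacna1i are T-type channels that open near rest and support burst firing, for which the thalamus is well known. Cacna1a is also abundant in cerebellar Purkinje and granule cells, and Cacna1g in Purkinje cells and thalamic relay neurons. Pyrethroids are known mainly as agents that hold sodium channels open.

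The start sites show what a single gene count merges. The RefSeq promoter table (GRCm38.p6) holds 8 starts for 5 of the 8 genes, with 3 for Cacna1c, 2 for Cacna1d and 1 each for Cacna1b, Cacna1e and Cacna1i. The 250 bases before 2 starts of Cacna1c are printed because RNA from both falls into 1 count. Those of Cacna1b and Cacna1i are printed as examples of an N-type and a T-type gene. Each reads 5′ to 3′ on the gene's strand, and capitals mark TGACG or its reverse complement CGTCA, a core of the cyclic AMP response element to which the calcium-responsive factor CREB binds. The windows are chr6:119196410-119196659 (minus strand) and chr6:119108496-119108745 (minus strand) for Cacna1c, chr2:24763153-24763402 (minus strand) for Cacna1b and chr15:80286988-80287237 (plus strand) for Cacna1i.
Cacna1c first start: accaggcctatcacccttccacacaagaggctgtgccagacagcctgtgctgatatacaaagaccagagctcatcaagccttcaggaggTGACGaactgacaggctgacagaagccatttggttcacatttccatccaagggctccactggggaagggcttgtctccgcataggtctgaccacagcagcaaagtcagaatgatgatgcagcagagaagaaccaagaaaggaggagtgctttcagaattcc
Cacna1c second start: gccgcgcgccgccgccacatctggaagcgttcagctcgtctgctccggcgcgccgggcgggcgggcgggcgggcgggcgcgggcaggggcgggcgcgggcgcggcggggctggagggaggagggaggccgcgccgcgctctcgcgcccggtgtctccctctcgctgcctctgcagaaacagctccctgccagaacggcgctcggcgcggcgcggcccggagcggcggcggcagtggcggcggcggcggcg
Cacna1b: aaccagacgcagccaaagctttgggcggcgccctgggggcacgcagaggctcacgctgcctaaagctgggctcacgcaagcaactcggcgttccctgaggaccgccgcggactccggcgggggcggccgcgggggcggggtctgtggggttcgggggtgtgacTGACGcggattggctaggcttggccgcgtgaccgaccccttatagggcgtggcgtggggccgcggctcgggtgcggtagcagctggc
Cacna1i: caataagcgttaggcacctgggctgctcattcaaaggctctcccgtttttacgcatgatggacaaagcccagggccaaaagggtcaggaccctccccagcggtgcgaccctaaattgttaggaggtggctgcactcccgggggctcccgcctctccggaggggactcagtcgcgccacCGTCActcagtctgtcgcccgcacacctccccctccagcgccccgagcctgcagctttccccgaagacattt
The GC content was 51.6% before the first Cacna1c start and 82.8% before the second, 72.0% for Cacna1b and 62.4% for Cacna1i. TGACG was in 3 of the 8 windows, on either strand, and in 17.8% of all 32851 windows of that length. The E-box CACGTG was in 0 of 8, against 6.0% of all windows. These counts describe letters in the windows and not binding.

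All 8 are long genes. On GRCm38 (GENCODE M21) Cacna1c lies on chromosome 6 (118587240 to 119196418, minus strand) and spans 609.2 kb, and Cacna1h on chromosome 17 (25374285 to 25433783, minus strand) spans 59.5 kb. Cacna1a is on chromosome 8 (84388440 to 84640246, plus strand), Cacna1b on chromosome 2 (24603887 to 24763152, minus strand) and Cacna1d on chromosome 14 (30039939 to 30491455, minus strand). Cacna1e is on chromosome 1 (154390731 to 154884501, minus strand), Cacna1g on chromosome 11 (94408391 to 94474198, minus strand) and Cacna1i on chromosome 15 (80287238 to 80398279, plus strand). The union of annotated exons ran from 9763 bases in Cacna1h to 25228 in Cacna1e. Some exon bases are shared with another gene: 435 of Cacna1a (3.81%) with the antisense gene Gm16183, 589 of Cacna1d (4.67%) with Chdh and 158 of Cacna1h (1.62%) with Tpsg1. The use of strand in counting is not given in the sources used here, so reads in those bases cannot be assigned. GENCODE M21 lists 22 coding transcripts for Cacna1c and 3 to 11 for each of the other genes. The deposited counts are per gene and do not separate splice forms, so the shares given for these genes are shares of each gene in the family.

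Libraries held 17570311 to 38680621 counts, and the 8 genes together took 0.0538% to 0.130% of them. A single gene of the 8 had 464 to 14178 counts in a library. Neuron, astrocyte, oligodendrocyte, microglia and endothelium markers were detected, with 0 genes of these lists at 0 in every library, and summed neuron markers ran from 1268 to 2934 CPM (library-size-scaled counts, with TMM factors). Choroid plexus markers were lower in deltamethrin for 7 of 7 genes (3 at an unadjusted p of 0.05, which 4.37% of all genes passed), with summed levels of 267 to 1295 CPM in control and 248 to 727 in deltamethrin. Striatum markers were lower for 8 of 8 (1 at an unadjusted p of 0.05) and blood markers for 5 of 5. Granule and Purkinje markers were higher for 6 of 6 each, astrocyte markers for 4 of 4 and endothelium markers for 3 of 3 (1 at an unadjusted p of 0.05). Their part in the group differences of the 8 genes was not tested, beyond the fits with region scores as covariates. Control replicate 1 had the lowest cerebellar granule score (mean log2 CPM of 6 markers), 1.32 against a median of 4.45, and deltamethrin replicate 14 the next, 2.52. Control replicate 2 had the highest share of counts in mitochondrial ribosomal RNA, 40.2% against a median of 13.97%. 

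No difference between deltamethrin and control was detected for any of the pore-forming genes. Of the 8 genes, 0 passed an adjusted p of 0.05 over all genes by edgeR's quasi-likelihood test, and 0 an unadjusted p of 0.05. Over all 19529 genes 0% passed the first threshold and 4.37% (853 genes) the second. Fold changes (deltamethrin over control, log2) ran from -0.06 for Cacna1h to 0.09 for Cacna1e, 6 positive and 2 negative, with a median of 0.02 against 0.0014 over all genes. The median absolute value was 0.04, against 0.08 over all genes tested. The control and deltamethrin ranges overlapped for each of the 8.

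**Figure D1:**
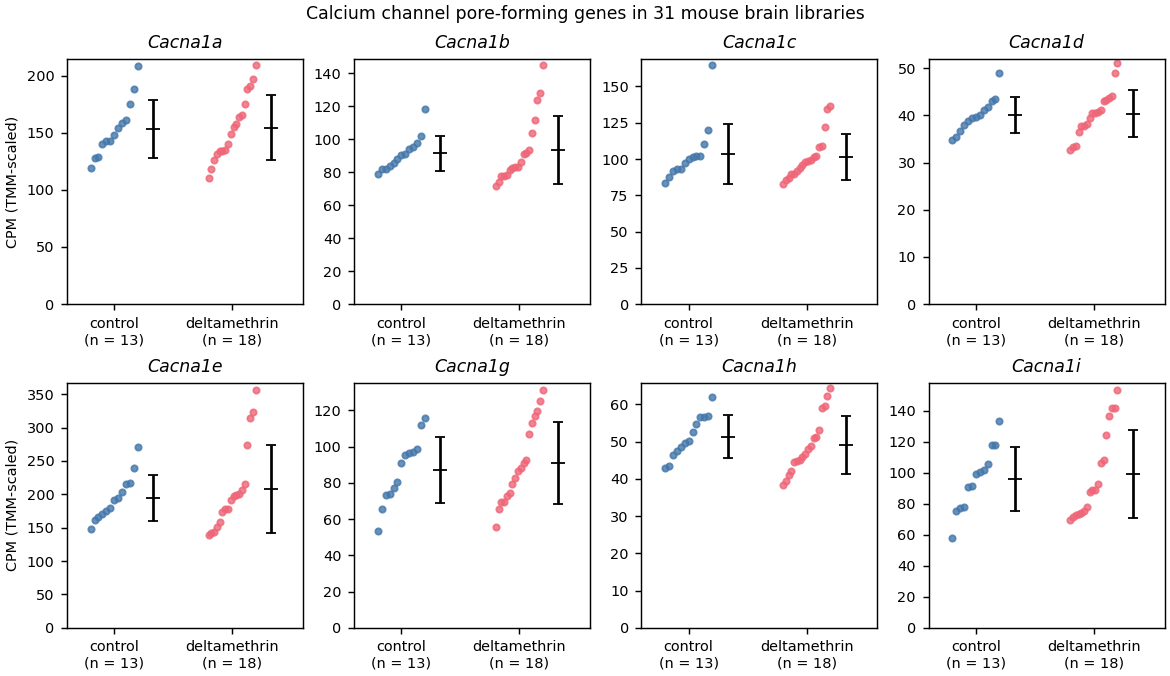
CPM (TMM-scaled, y axis from 0) of each gene in 13 control (blue) and 18 deltamethrin (red) libraries, with the mean ± SD in black. The groups overlap in each panel, and the highest value is a deltamethrin library for each gene but Cacna1c, where it is control replicate 2 at 165 CPM.

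Among the presynaptic channels, Cacna1e had the widest spread. Its level in control ran from 148 CPM through a median of 191 to 271, and in deltamethrin from 139 through 194 to 356. The deltamethrin range enclosed the control range, and its SD was 65.7 CPM (n = 18) against 34.2 (n = 13). Deltamethrin replicates 1, 7, 2 and 3 held the 4 highest values (356, 324, 314 and 274 CPM), followed by control replicate 4 at 271. The log2 fold change was 0.09 ± 0.13 (SE), with a 95% interval of -0.16 to 0.35 (edgeR unadjusted p = 0.465, adjusted 0.868).

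Cacna1a ran from 119 through a median of 148 to 209 CPM in control, and from 110 through 152 to 209 in deltamethrin. The lowest values within each group were control replicate 1 and deltamethrin replicate 14, the libraries lowest in granule markers. Deltamethrin replicate 5, at 118.59 CPM, was also below control replicate 1, at 119.15, and its granule score ranked 27 of 31 from the highest. The means were 153 ± 25.4 (SD, n = 13) and 154 ± 28.6 (SD, n = 18), and the log2 fold change 0.01 ± 0.09 (interval -0.17 to 0.19, edgeR adjusted p = 0.980). Cacna1b ran from 78.9 through 90.6 to 118 CPM in control and from 71.6 through 84.8 to 145 in deltamethrin. Here too the deltamethrin range enclosed the control range, and the log2 fold change was 0.03 ± 0.09 (interval -0.15 to 0.21, edgeR adjusted p = 0.938).

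Of the L-type genes, Cacna1c ran from 83.6 through a median of 100.1 to 165 CPM in control and from 82.8 through 98.3 to 137 in deltamethrin. Control replicate 2 held the highest value. The log2 fold change was -0.03 ± 0.08 (interval -0.20 to 0.14, edgeR adjusted p = 0.940), and it was 0.04 without control replicate 2. Cacna1d ran from 34.8 through 39.6 to 49.0 CPM in control and from 32.6 through 40.5 to 51.0 in deltamethrin. It was the steadiest of the 8, with a coefficient of variation of 11.05% over the 31 libraries against 26.9% for Cacna1e. Its log2 fold change was 0.0090 ± 0.06 (interval -0.11 to 0.13, edgeR adjusted p = 0.976).

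Of the T-type genes, Cacna1i ran from 58.0 through a median of 99.1 to 134 CPM in control and from 69.4 through 89.1 to 154 in deltamethrin. Its lowest library was control replicate 2. The median was lower and the mean higher in deltamethrin (99.3 ± 28.6 against 96.0 ± 20.7 CPM, SD), and the log2 fold change was 0.05 ± 0.13 (interval -0.21 to 0.31, edgeR adjusted p = 0.934). Cacna1g ran from 53.6 through 91.2 to 116 CPM in control and from 55.6 through 87.3 to 131 in deltamethrin, and the log2 fold change was 0.07 ± 0.12 (interval -0.17 to 0.30, edgeR adjusted p = 0.903). Cacna1h ran from 42.9 through 50.2 to 61.9 CPM in control and from 38.4 through 47.3 to 64.5 in deltamethrin. It had the smallest p of the 8, with a log2 fold change of -0.06 ± 0.07 (interval -0.21 to 0.08, edgeR unadjusted p = 0.388, adjusted 0.850).

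In folds, the 95% intervals bounded a rise at 1.28-fold for Cacna1e and at 1.06-fold for Cacna1h. They bounded a fall at 0.864 of the control level for Cacna1h and for Cacna1i and at 0.924 for Cacna1d. The signs of most of these small values depended on covariates. With the exon length trend of each library (defined with its results) as a covariate, 8 of 8 fold changes were negative, from -0.13 to -0.05, with edgeR adjusted p = 0.999 as the smallest. The median over all genes was -0.011 in this fit, and the share of all genes that were negative is not given. The 8 are long genes that rose with the trend, so this count cannot set them apart from long genes in general.

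**Figure D2:**
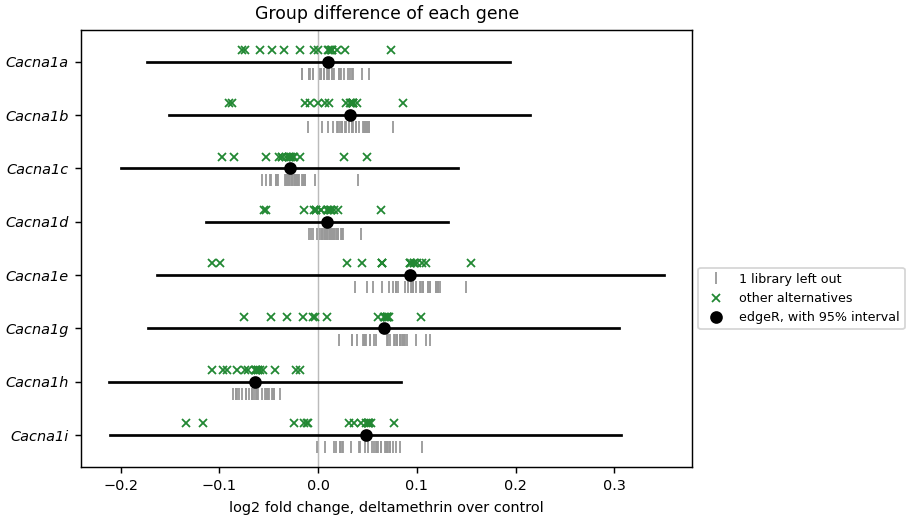
Log2 fold change of each gene, deltamethrin over control (x axis), from edgeR with its 95% interval (black), under 16 other alternatives (green crosses) and with each of the 31 libraries left out in turn (grey ticks). Each interval spans 0, and the crosses lie between -0.13 and 0.16.

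Levels between genes were compared as CPM per kb of exon union. Cacna1a was highest at 13.5 ± 2.35 (SD, n = 31), followed by Cacna1i (9.93 ± 2.56), Cacna1b (9.32 ± 1.71), Cacna1g (8.82 ± 2.04) and Cacna1e (8.03 ± 2.16). Cacna1h (5.13 ± 0.716), Cacna1c (4.83 ± 0.832) and Cacna1d (3.19 ± 0.352) were the lowest. Cacna1a stood above Cacna1i in 31 of 31 libraries, but the gap of their means did not exceed the sum of their SDs. Neighbours among the next 4 genes did not differ beyond their spread: Cacna1i exceeded Cacna1b in 23 libraries, Cacna1b exceeded Cacna1g in 20 and Cacna1g exceeded Cacna1e in 21. Cacna1e exceeded Cacna1h, and Cacna1c exceeded Cacna1d, in 31 of 31, with ratios of means of 1.565 and 1.515. Cacna1h exceeded Cacna1c in 22, with a gap of means that did not exceed the sum of their SDs. The order depends on the length used. Per kb of longest coding sequence Cacna1e led at 29.7 ± 7.98, Cacna1a followed at 21.7 ± 3.78 and Cacna1c at 15.4 ± 2.65, and Cacna1d stayed last at 6.16 ± 0.680.

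As shares of the summed level per kb of exon union, the P/Q, N and R-type genes held 49.1 ± 2.25% (SD, n = 31), the T-type genes 38.0 ± 3.14% and the L-type genes 12.9 ± 1.35%. The mean share of each gene differed between the groups by less than the SD of either group. The widest gaps were Cacna1h, 8.52 ± 0.895% in control and 8.13 ± 1.41% in deltamethrin, and Cacna1g, 13.8 ± 2.09% and 14.2 ± 1.56%. Cacna1a took 21.6 ± 2.46% and 21.5 ± 1.57%, and Cacna1b 14.9 ± 0.919% and 14.9 ± 0.769%. The lowest share of Cacna1i was 9.13% in control replicate 2 and its highest 2.06 times that, or 1.47 times its lowest without that library. For Cacna1h the highest share was 1.92 times the lowest with or without it. The coefficient of variation of the share was highest for Cacna1h, 14.7% over the 31 libraries. Control replicate 2 also had the lowest T-type share, 26.9%. With the longest coding sequence as the length the P/Q, N and R-type genes held 53.4%, the T-type genes 28.55% and the L-type genes 18.01%.

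**Figure D3:**
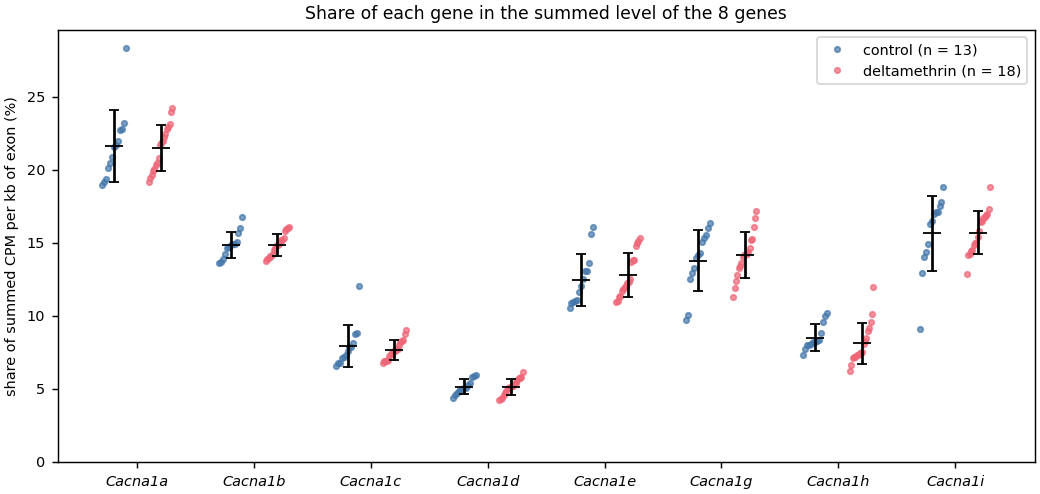
Share of each gene in the summed CPM per kb of exon of the 8 genes (percent, y axis from 0), by library, in control (blue, n = 13) and deltamethrin (red, n = 18), with mean ± SD in black. Shares overlap between the groups for each gene, and control replicate 2 is the highest control point of Cacna1a (28.4%) and Cacna1c (12.1%) and the lowest of Cacna1i (9.13%).

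The libraries differed in their levels of brain region markers, so each gene's level was fitted on the score of a region's markers, with the group as a second term. Cacna1a and Cacna1g rose with cerebellar markers. Per log2 unit of granule score, Cacna1g rose by 0.32 ± 0.05 log2 (SE, edgeR adjusted p = 0.000178) and Cacna1a by 0.20 ± 0.05 (adjusted p = 0.00762), so 2 of 8 rose, against 9.16% of all genes. Over the whole range of the score this is 2.34-fold for Cacna1g and 1.70-fold for Cacna1a. In a homogenate, fewer cells of a type and less RNA per cell cannot be told apart. Without control replicate 1 and deltamethrin replicate 14, the edgeR slopes were 0.47 (adjusted p = 0.000754) and 0.27 (adjusted p = 0.0146). In that fit Cacna1i also rose, by 0.45 (edgeR adjusted p = 0.00547), against 0.20 ± 0.07 (adjusted p = 0.0597) in all 31. That fit called 34.4% of all genes in either direction, against 3062 of 19523 with all 31. With 1 library left out Cacna1i passed in 3 fits (without control replicate 1, control replicate 2 or deltamethrin replicate 1) and not in 28. Under the other alternatives, that fit among them, it passed in 4 and not in 10. With the median of the markers as the score, Cacna1g alone passed. Granule scores averaged 4.04 ± 0.95 in control and 4.37 ± 0.64 in deltamethrin (SD), and with the score as a covariate the group fold changes were -0.06 for Cacna1a and -0.03 for Cacna1g on the log2 scale.

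**Figure D4:**
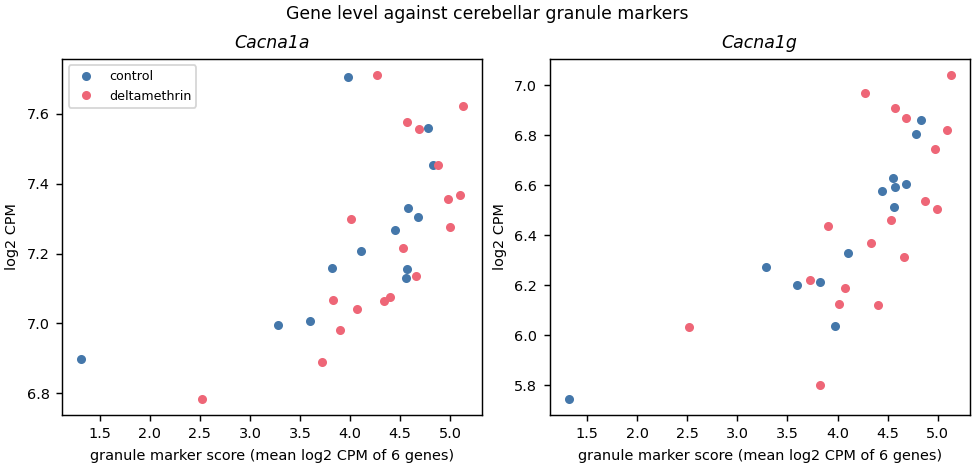
Log2 CPM of Cacna1a and Cacna1g (y axes, not from 0) against the cerebellar granule marker score of each library (mean log2 CPM of 6 genes, x axis), control in blue and deltamethrin in red. The point at the far left, with a score of 1.32, is control replicate 1, where Cacna1g is at its lowest.

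The Purkinje score gave the same 2 genes, with slopes of 0.50 ± 0.10 for Cacna1g (edgeR adjusted p = 0.00314) and 0.34 ± 0.09 for Cacna1a (adjusted p = 0.0211), against 3.86% of all genes rising. The Purkinje and granule scores moved together (r = 0.951 over the 31 libraries, a description), so these cell types cannot be told apart here. Cacna1a did not pass on the Purkinje score without control replicate 1 (0.37, edgeR adjusted p = 0.0669) or without deltamethrin replicate 14 (0.33, adjusted p = 0.0561). With the median of the markers as the score Cacna1g did not pass (0.57, edgeR adjusted p = 0.0982) and Cacna1a did (0.49, adjusted p = 0.0335). On the thalamus score Cacna1g rose by 0.68 ± 0.16 (edgeR adjusted p = 0.0139), 1 of 8 against 5.27% of all genes. That score moved with the dentate gyrus score (r = 0.787) and the granule score (r = 0.516), so the slope cannot be assigned to the thalamus alone. On the thalamus score Cacna1g did not pass without deltamethrin replicate 8 (0.61, edgeR adjusted p = 0.0777) or without control replicates 1 and 2 (0.57, adjusted p = 0.0747). With the mitochondrial rRNA share as a covariate its slope was 0.33 (edgeR adjusted p = 0.1935), and with the median of the markers 0.32 ± 0.24 (adjusted p = 0.920). Cacna1h had a thalamus slope of 0.29 ± 0.11 (edgeR adjusted p = 0.0743), and passed without deltamethrin replicate 1 or 12, which gave 2 genes. Those fits called 15.41% and 16.08% of all genes in either direction. On the striatum, dentate gyrus and cortex scores 0 of 8 passed, against 0.328%, 0.0256% and 2.76% of all genes. Cacna1i had a cortex slope of 0.85 ± 0.33 (edgeR unadjusted p = 0.0149, adjusted 0.119), and passed without deltamethrin replicate 2.

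Most of the 8 genes also moved with measures of RNA composition. The mitochondrial rRNA share was related to region scores over the 31 libraries. Pearson's r was -0.491 (granule), -0.401 (Purkinje), 0.383 (striatum), -0.428 (thalamus), -0.256 (dentate gyrus) and -0.423 (cortex). The slopes given here were fitted without a region score, so a part apart from region was not tested. On the log2 share of mitochondrial rRNA 6 of 8 fell, against 27.5% of all genes, and Cacna1i and Cacna1g had the steepest slopes, -0.55 ± 0.06 (edgeR adjusted p = 3.56e-10) and -0.48 ± 0.06 (adjusted p = 6.66e-09). From the lowest to the highest share this leaves 0.390 of the level of Cacna1i and 0.441 of that of Cacna1g. Cacna1c, at -0.01 ± 0.07 (edgeR adjusted p = 0.904), and Cacna1d, at -0.11 ± 0.05 (adjusted p = 0.0590), did not pass with all 31 libraries. Without control replicate 2, the library with the highest share, 8 of 8 fell. The 27.5% of all genes is for all 31 libraries. No share is given for the fit without control replicate 2, so its 8 of 8 is not read as a result about these genes. The slopes were then -0.17 for Cacna1c (edgeR adjusted p = 0.0123), -0.15 for Cacna1d (adjusted p = 0.0155) and -0.33 for Cacna1a (adjusted p = 9.06e-06), against -0.17 ± 0.07 for Cacna1a in all 31 (adjusted p = 0.0328). The call of Cacna1a was also lost in 14 of the 31 fits with 1 library left out (control replicates 4, 7 and 9 and deltamethrin replicates 1, 2, 3, 7, 8, 11, 12, 15, 16, 17 and 18), with upper-quartile factors (edgeR adjusted p = 0.103) and with a minimum mean count of 50 (adjusted p = 0.0655). Cacna1b, Cacna1e, Cacna1g, Cacna1h and Cacna1i fell in 31 of 31 such fits, and Cacna1d in 4 (without control replicate 2, 5 or 7 or deltamethrin replicate 6). Among the 1553 other protein-coding genes with exons at least as long as those of Cacna1h, 50.4% fell.

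The 8 genes also moved with a measure of how long genes stood in a library. The exon length trend of a library is the slope, over 15114 protein-coding genes other than the 8, of a gene's deviation from its mean log2 CPM on log10 of its exon length. It ran from -0.47 in control replicate 2 to 0.73 in deltamethrin replicate 1, and was chosen as a measure after the data were seen. The 5 libraries with the highest trend were deltamethrin replicates 1, 2, 3 and 7 and control replicate 4, which were also the 5 with the highest Cacna1e. On this trend 8 of 8 genes rose, against 27.9% of all genes, most of which the trend was built from. Of the 1553 other protein-coding genes with exons at least as long as those of Cacna1h, 69.7% rose. The 8 are long genes, so this count cannot set them apart from long genes in general. Slopes were steepest for Cacna1i (1.05 ± 0.09, edgeR adjusted p = 8.98e-12) and Cacna1e (1.01 ± 0.09, adjusted p = 3.98e-11), which is 2.40-fold and 2.32-fold over the range. They were lowest for Cacna1h (0.28 ± 0.10, edgeR adjusted p = 0.0197) and Cacna1c (0.29 ± 0.12, adjusted p = 0.0314). With 1 library left out, Cacna1h did not pass without deltamethrin replicate 1 or 8. Cacna1c did not pass without deltamethrin replicate 1, 2, 7, 9 or 14. The same trend on gene span gave 7 of 8, without Cacna1h, against 26.6% of all genes and 71.2% of the 1553. The exon length trend was -0.09 on average (SD 0.235) over the 13 controls and 0.06 (SD 0.363) over the 18 deltamethrin libraries.

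**Figure D5:**
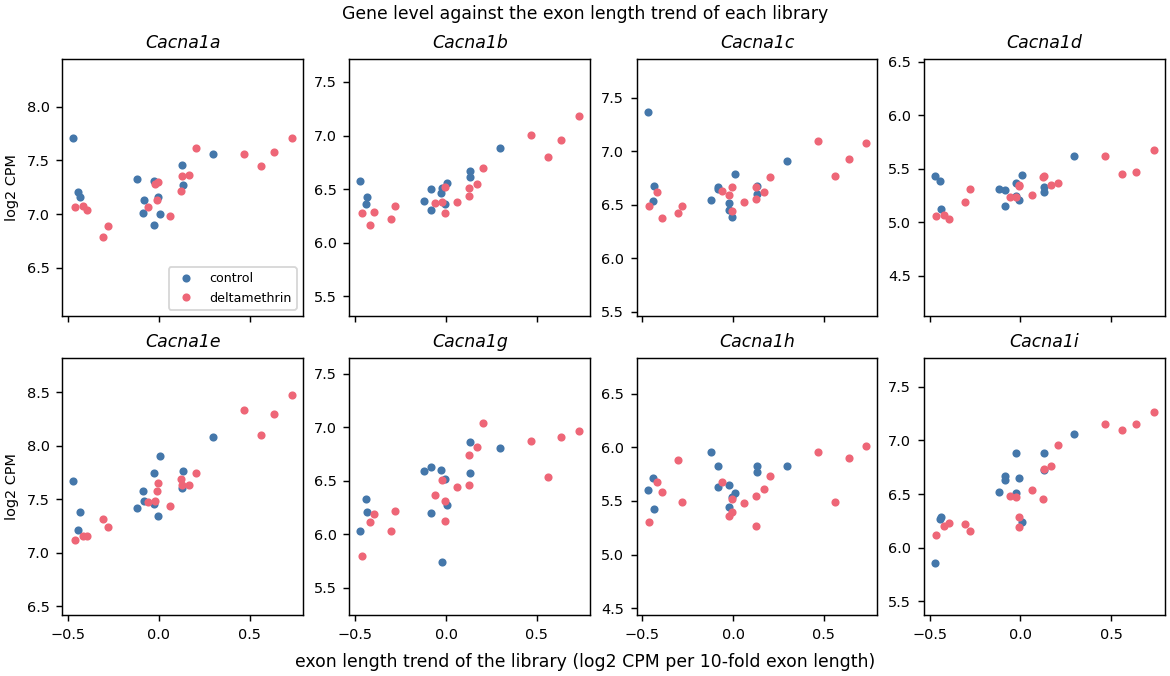
Log2 CPM of each gene (y axes of equal height, not from 0) against the exon length trend of the library (log2 CPM per 10-fold exon length, x axis), control in blue and deltamethrin in red. Points rise from left to right with the steepest slopes for Cacna1i (1.05) and Cacna1e (1.01), and control replicate 2, at the far left, stands high for Cacna1a and Cacna1c.

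The mitochondrial rRNA share and the exon length trend were related (r = -0.721 over 31 libraries, a description). With the trend as a covariate, the mitochondrial slopes of Cacna1g (-0.36, edgeR adjusted p = 0.000134) and Cacna1i (-0.28, adjusted p = 3.6e-05) were still called as falling, so 2 of 8 fell. Those of Cacna1e (0.23, edgeR adjusted p = 0.00107) and Cacna1c (0.22, adjusted p = 0.0197) were called as rising. Cacna1a (0.02, edgeR adjusted p = 0.837), Cacna1b (0.04, adjusted p = 0.553) and Cacna1h (-0.15, adjusted p = 0.0948) were not called. No share of all genes is given for the mitochondrial slopes in this fit. The granule slopes of Cacna1g (0.24, edgeR adjusted p = 3.6e-05) and Cacna1a (0.16, adjusted p = 0.0185) were also still called with the trend. With the mitochondrial share as a covariate instead, Cacna1a did not pass on the granule score (0.18, edgeR adjusted p = 0.0708). The granule slope of Cacna1g was then 0.19 (edgeR adjusted p = 0.0050), or 1.65-fold over the range in place of 2.34-fold. The part of RNA quality in these slopes was not tested.

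Deviations of log2 CPM from the group means were positively correlated in 28 of 28 pairs of the 8 genes, given as a description since the pairs share libraries and composition. Pearson's r over the 31 libraries ran from 0.317 for Cacna1c and Cacna1i, through a median of 0.65, to 0.93 for Cacna1b and Cacna1e. Among the r of Cacna1b with all genes tested, 0.93 was at percentile 99.9. Among those of Cacna1c, 0.317 was at percentile 81.4. Cacna1e and Cacna1h (0.451) were at percentile 79.3 among those of Cacna1e. Cacna1h, a T-type channel also known from sensory neurons, had 0.536 as its highest r, with Cacna1i. By the same r, the tested genes most like Cacna1e were Grin2b, an NMDA receptor subunit (0.973), and Pclo, an active zone scaffold (0.969). For Cacna1i they were Atp2b2, a plasma membrane calcium pump (0.985), and Adgrl1 (0.983). For Cacna1g they were Kcnc1, a fast potassium channel (0.95), and Ank1 (0.935). For Cacna1b they were Tenm4 (0.964) and D630045J12Rik (0.962), for Cacna1a Specc1 and Ttc28 (both 0.898), and for Cacna1c Sorcs3 (0.891) and Ep300 (0.865). Cacna1d was most like Brwd1 (0.874) and Cacna1e (0.869), and Cacna1h most like Col4a1, a basement membrane collagen (0.812), and Mms19 (0.807).

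The other genes of calcium handling showed no group difference after adjustment. Of 61 listed genes 60 were tested, and 0 passed over all genes by edgeR. At an unadjusted p of 0.05 there was 1 higher and 0 lower of the 60, a smaller share than the 4.37% over all genes. It was Camk2d, a calmodulin-dependent kinase subunit, whose level averaged 82.5 ± 9.95 CPM in the controls (SD) and 95.3 ± 17.1 CPM with the agent, for a log2 difference of 0.21 ± 0.08 (edgeR unadjusted p = 0.0168, adjusted 0.813). The 4 beta subunits had a median log2 fold change of -0.04 (1 positive, 3 negative), and Cacnb3 had the highest level per length of them (46.1 CPM per kb). The 4 alpha2delta subunits had a median of 0.08 (3 positive, 1 negative), with Cacna2d1 highest per length (10.45 CPM per kb). Of 8 gamma subunits 7 were tested, with a median of 0.02, and Cacng1 was not, with at most 17 counts in a library. The remaining pore-forming genes were the retinal Cacna1f (0.6825 CPM in control), the skeletal muscle Cacna1s (0.483 CPM) and the leak channel Nalcn (116.5 CPM), with log2 fold changes of -0.14, -0.16 and -0.0045. The medians were 0.02 for 12 active zone partners, 0.02 for 12 sensors and effectors, 0.04 for 7 reticulum channels and pumps, 0.04 for 7 extrusion genes and -0.04 for 4 calcium-activated channels, against 0.0014 over all genes.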

How the data were processed

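The authors deposited whole-number raw counts per Ensembl gene, with no normalization, in 1 column for each of the 31 samples. Columns were matched to samples by title, and groups were taken from the agent label. Per the submitters' processing notes, Trimmomatic, HISAT2, SAMtools and MultiQC were used with build GRCm38. The counting tool, its annotation and its use of strand are not given in the sources used here.

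Counts were filtered with filterByExpr (minimum count 10, minimum total 15), scaled by TMM and fitted with edgeR 4.0.16 (R 4.3.3, quasi-likelihood F-test, robust=TRUE), with Benjamini-Hochberg adjustment over all genes tested. Log2 CPM has a prior count of 2. Region scores are mean log2 CPM of listed markers, and slopes were fitted 1 measure at a time with the group as a second term. Lengths come from GENCODE M21, which held 99.3% of the IDs. Scripts were tested on simulated data.

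The 8 genes and the other lists were chosen with earlier results of these data known. Named genes are the 8, the 2 most correlated with each and, from each other calcium list, up to 2 at an unadjusted p under 0.05. Others are named where a result turns on them. The gene highest per length is given only for the beta and alpha2delta subunits. Alternatives were other scaling, other filters, DESeq2 1.42.0, limma 3.58.1 voom, covariates and leaving out each library. Both length trends and the pairs of left-out libraries were added after seeing the data. The smallest chi-square per degree of freedom between libraries of a group was 6.2, so no library was counted as a repeat of another.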

Additional observations from a re-analysis of the deposited data

How the results depend on the processing

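For the group comparison, 0 of the 8 genes passed under 16 alternatives and with each of the 31 libraries left out, with 0.664 as the smallest edgeR, DESeq2 or limma adjusted p of a member. Signs of the log2 fold changes were not all stable. They were kept in 234 of 248 values with 1 library left out and in 95 of 128 under the alternatives. Cacna1h was negative in all 31 and all 16 fits. The reversals were as follows. With limma voom Cacna1a was -0.0046. With no scaling factors Cacna1c was 0.049. With the mitochondrial rRNA share as a covariate Cacna1a was -0.018, Cacna1b -0.0084, Cacna1d -0.0042 and Cacna1i -0.015. With the granule score Cacna1a was -0.059, Cacna1d -0.0026, Cacna1g -0.032 and Cacna1i -0.024. With the striatum score Cacna1a was -0.047, Cacna1b -0.013, Cacna1d -0.015, Cacna1g -0.0056 and Cacna1i -0.011. With 6 region scores Cacna1a was -0.035, Cacna1d -0.0020 and Cacna1g -0.0035. With the gene span trend Cacna1a was -0.074, Cacna1b -0.087, Cacna1d -0.053, Cacna1e -0.099, Cacna1g -0.0475 and Cacna1i -0.12. With the exon length trend Cacna1a was -0.077, Cacna1b -0.091, Cacna1d -0.055, Cacna1e -0.11, Cacna1g -0.075 and Cacna1i -0.13, and the mitochondrial slopes were 0.024 for Cacna1a, 0.043 for Cacna1b, 0.088 for Cacna1d and 0.23 for Cacna1e. Without control replicates 1 and 2 Cacna1c was 0.026, Cacna1g -0.016 and Cacna1i -0.011. With 1 library left out Cacna1a ran from -0.016 to 0.051, Cacna1b from -0.010 to 0.075, Cacna1c from -0.057 to 0.040, Cacna1d from -0.0089 to 0.043 and Cacna1i from -0.00097 to 0.11.

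Counts of genes rising with a region score changed as follows, and the cause was not tested. Percentages of all genes beside these counts are of genes called in either direction. The main fits called 3062 (granule), 945 (Purkinje) and 2186 (thalamus) genes in either direction, of 19523, 19523 and 19524 tested. With no scaling factors the counts of the 8 were 5 (granule), 4 (Purkinje), 7 (thalamus), 5 (dentate gyrus) and 7 (cortex). Those fits called 32.35% (granule), 32.57% (Purkinje), 46.51% (thalamus) and 30.79% (dentate gyrus) of all genes in either direction. For cortex no share is given here, so its count of 7 is not read as a result about these genes. With the mitochondrial rRNA covariate the counts were 1 (granule), 1 (Purkinje) and 0 (thalamus), against 2.24%, 1.97% and 0.379% of all genes. With the median of markers they were 1, 1 and 0 in the same order, against 3.85%, 1.69% and 0.0051% of all genes. The thalamus count was 2 with DESeq2 (16.93% of all genes) and 0 without control replicates 1 and 2 (1.10%). The Purkinje count was 1 without control replicate 1 and deltamethrin replicate 14 (5.34%). With 1 library left out the granule count ran from 2 to 3, the Purkinje count from 1 to 2, the thalamus count from 0 to 2 and the cortex count from 0 to 1. Purkinje fits without control replicate 1 or deltamethrin replicate 14 called 1.94% and 7.99% of all genes. The thalamus fit without deltamethrin replicate 8 called 0.565%, and the cortex fit without deltamethrin replicate 2 called 7.85%. For the granule fits with 1 library left out no share is given here. The count falling with mitochondrial rRNA ran from 5 to 8 with 1 library left out, and was 5 with upper-quartile factors or a minimum mean count of 50, 8 with no scaling factors and 2 with the exon length trend. No shares of all genes are given for these fits, so these counts are not read as a result about the 8 genes. With all 31 libraries 27.5% of all genes fell, and 10845 of 19527 were called in either direction. Class shares per longest transcript were 14.84% (L-type), 52.25% (P/Q, N and R-type) and 32.91% (T-type), and per longest coding sequence 18.01%, 53.43% and 28.55%. No paired analysis was possible because numbers given in sample order only name libraries and pair none of them across groups. Gene counts limit the shares to genes, not splice forms.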
